A study of Mus musculus with 42 samples.

Results

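The teneurins (Tenm1, Tenm2, Tenm3 and Tenm4) and the latrophilins (Adgrl1, Adgrl2 and Adgrl3) were examined as binding targets of Hox transcription factors (TFs) in differentiating mouse motor neurons. A ChIP-seq event was assigned to a gene when its summit base lay in the gene's GENCODE span or within 50 kb on either side, on the mm10 build. Events of the 21 deposited lists that lay within 100 bp of each other were merged into sites. The 7 gene windows held 1355 sites made from 4257 events, of 377270 sites and 1086925 events on the assembled chromosomes.

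Teneurins are large transmembrane proteins, and latrophilins are adhesion G protein-coupled receptors that bind teneurins across the gap between an axon and its partner cell. The pair guides synapse formation and the choice of synaptic partners, and latrophilins also bind the FLRT proteins, which in turn bind the UNC5 guidance receptors. Hox TFs give spinal motor neurons their position along the body, which decides where their axons go.

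All cells were mouse embryonic stem cell lines that carried a doxycycline (Dox) inducible, tagged Hox transgene at the X-linked Hprt locus, so that every sample, controls included, expressed an added Hox gene on top of its own genome. Embryoid bodies (EBs) were patterned with retinoic acid and the Hedgehog agonist SAG from day 0, given Dox at day 2, and collected at day 3 (24 h of Dox) or day 4 (48 h). The full-length factors at day 3 were HOXC6 and HOXC8 (brachial level), HOXC9, HOXA9 and HOXD9 (thoracic paralogues), HOXC10 (lumbar) and HOXC13 (the most caudal group). In the HOXC13:C10.1 and HOXC13:C10.2 chimeras the homeodomain and C-terminus of HOXC10 followed the N-terminal part of HOXC13, and the opposite exchange gave HOXC10:C13.1 and its partner HOXC10:C13.2. In each pair the second version took more of the stretch before the homeodomain from the protein that gave the homeodomain. HOXC6, HOXC9 and HOXC10 were also profiled at day 4. HOXC6 and HOXC9 were profiled in EBs that had Dox for 12 h without the patterning signals. The cofactor MEIS was profiled at day 3 in the iHoxc6, iHoxc9 and iHoxc10 V5-tagged lines, and PBX at day 4 in the iHoxc9 and iHoxc10 lines. Each HOX list pooled 2 libraries, except HOXC10 with 3 at day 3 (replicate 1 from a V5 line, the others Flag) and 4 at day 4. For HOXA9, HOXD9 and HOXC13 the second library came from an HA-tagged line. Each MEIS or PBX list came from 1 library.

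Libraries held 5.04 to 32.9 M reads, and the share of reads that the caller placed in events ran from 0.008 (PBX) to 0.527 (HOXC13:C10.1). The lists were correspondingly uneven, from 848 events (PBX in iHoxc10) and 17900 (HOXC6 at day 3) to 128388 (HOXC9 in EBs). Only pooled values were used, so no difference between factors could be tested against the spread between replicates. The 95% intervals given below are exact Poisson intervals for counts and exact binomial (Clopper-Pearson) intervals for shares. They cover counting error alone. Densities were divided by the density of the same list over the genome, which removes the length of the list but not its depth.

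A few of the sites are shown first, because the comparisons return to them. Each line gives the plus strand of mm10 (RefSeq GRCm38) from 50 bases before the summit to 50 after. Capitals mark every match, on either strand, to the homeobox core TAAT, to TTTAT, which posterior Hox factors are known to prefer, to its variant TTTAC, and to a composite with PBX, TGATTTAT. The composite contains TTTAT, and neighbouring matches can overlap. Of 51566 consecutive tiles of the same length cut from the 7 windows, 56.4% held TAAT, while 36.1% held TTTAT, 21.03% held TTTAC and 0.758% held the composite.
Tenm2 site of all 7 full-length factors, intron, chr11:36150862-36150962: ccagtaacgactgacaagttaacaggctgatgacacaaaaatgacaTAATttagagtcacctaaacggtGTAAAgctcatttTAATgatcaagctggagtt
Tenm3 upstream site, strongest for HOXC6, HOXC8 and HOXD9, chr8:48892944-48893044: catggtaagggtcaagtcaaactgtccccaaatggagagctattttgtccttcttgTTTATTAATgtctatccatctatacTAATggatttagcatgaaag
Tenm3 downstream site of HOXC6 and HOXC8 alone, chr8:48186303-48186403: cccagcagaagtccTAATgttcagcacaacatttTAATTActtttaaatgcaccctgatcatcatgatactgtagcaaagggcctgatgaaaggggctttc
Tenm4 intron site of HOXC6 at day 4, chr7:96288668-96288768: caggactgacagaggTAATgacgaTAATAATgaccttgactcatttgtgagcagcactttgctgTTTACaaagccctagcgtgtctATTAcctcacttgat
Tenm4 intron site of HOXC13, chr7:96779880-96779980: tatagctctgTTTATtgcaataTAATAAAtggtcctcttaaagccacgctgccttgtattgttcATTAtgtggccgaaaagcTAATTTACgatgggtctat
Adgrl2 intron site of HOXC9, chr3:148862140-148862240: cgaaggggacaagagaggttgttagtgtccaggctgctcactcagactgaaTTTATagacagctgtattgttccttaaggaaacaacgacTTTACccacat
Adgrl3 intron site of HOXC9 and MEIS, chr5:81565647-81565747: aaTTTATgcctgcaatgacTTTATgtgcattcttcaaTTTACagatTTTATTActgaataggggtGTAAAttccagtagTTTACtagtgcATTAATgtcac
Adgrl3 intron site of both EB lists, chr5:81624022-81624122: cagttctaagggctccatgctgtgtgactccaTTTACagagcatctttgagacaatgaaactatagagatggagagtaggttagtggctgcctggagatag
Adgrl3 intron site of the HOXC10:C13 chimeras, chr5:81751783-81751883: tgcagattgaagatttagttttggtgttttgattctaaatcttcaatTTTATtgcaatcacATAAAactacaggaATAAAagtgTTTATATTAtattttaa
Adgrl3 intron site of HOXC13, chr5:81773651-81773751: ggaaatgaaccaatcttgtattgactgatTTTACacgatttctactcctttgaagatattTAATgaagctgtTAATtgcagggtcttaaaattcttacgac

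Sites were dense in 5 of the 7 genes and sparse in Tenm1 and Adgrl1. The 7 windows together carried 26.0 merged sites per 100 kb, against 14.2 over the genome and 11.7 in the median window of a protein-coding gene. Adgrl2 was the densest, with 110 sites in 275 kb, or 40 per 100 kb (95% interval 32.9 to 48.2), more than 99.4% of coding windows. Adgrl3 followed with 339 sites, or 37.5 per 100 kb (33.6 to 41.7), and Tenm3 with 241, or 33.6 per 100 kb (29.5 to 38.2). The intervals of these neighbours overlap, so their order is not settled. Tenm2 (353 sites, 26.6 per 100 kb) and Tenm4 (218 sites, 26.0 per 100 kb) differed by less than their counting error.

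Tenm1, on chrX:42527866-43429126, held 86 sites in a window of 1001 kb, or 8.59 per 100 kb (6.87 to 10.6). Its density was close to that of its chromosome: X-linked HOXC9 events at day 3 ran at 0.336 of the genome rate, and Tenm1 stood at 0.286 (0.123 to 0.563). The windows of Tenm1 held no event of HOXD9, of HOXC10 at either day, of MEIS or of PBX. Both HOXC10:C13 chimeras stood higher, with 21 and 32 events, 0.904 (0.559 to 1.38) and 0.981 (0.671 to 1.39) of the genome rate, above 0.423 and 0.453 for the X chromosome as a whole. EB HOXC9 had 31 events, 0.639 (0.434 to 0.906), also above its X rate of 0.408. The chimera pair was also the richest in repeats: 19.2% of all events in these lists had a summit region that was mostly soft-masked, against 1.14 to 9.83% in the other HOX lists, and the part of repeats in the Tenm1 count was not tested.

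Adgrl1, the smallest member at 41.9 kb, lies on chr8:83900105-83941954 among 3 other coding genes. It held 8 sites, only 1 of them inside the gene. The site with most lists, 45.1 kb upstream, was held by 8 lists, had 89.5 estimated HOXC9 reads and ranked 38945 of 74085. Near its start site, 599 bp upstream, HOXC10 at day 4 had an event of 139.5 reads, with PBX in iHoxc10 at 20.4 reads 526 bp upstream.

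Most sites were intronic, and the gene spans made up 86.6% of the window length. Of the 1355 sites 89.2% lay in introns, 71 in the 5′ flank, 49 in the 3′ flank, 18 in exons outside UTRs and 9 in UTR exons. Within 1 kb of an annotated coding start site there were 17 sites, 6 at Adgrl2, 5 at Tenm4, 3 at Tenm3, 2 at Adgrl3 and 1 at Adgrl1. Most sites belonged to few lists: 575 (42.4%) were seen in 1 list, against 45.8% over the genome, and 75 (5.54%) in 10 or more, against 5.13%. The median was 2 lists per site, as over the genome. Sites were also unevenly spread along the genes. The fullest 20-kb stretch of Adgrl3 held 19 sites, 40 kb from the 5′ end, against a median of 7.5, and in Tenm4 it held 14, 480 kb from the 5′ end, against 5.

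**Figure D1:**
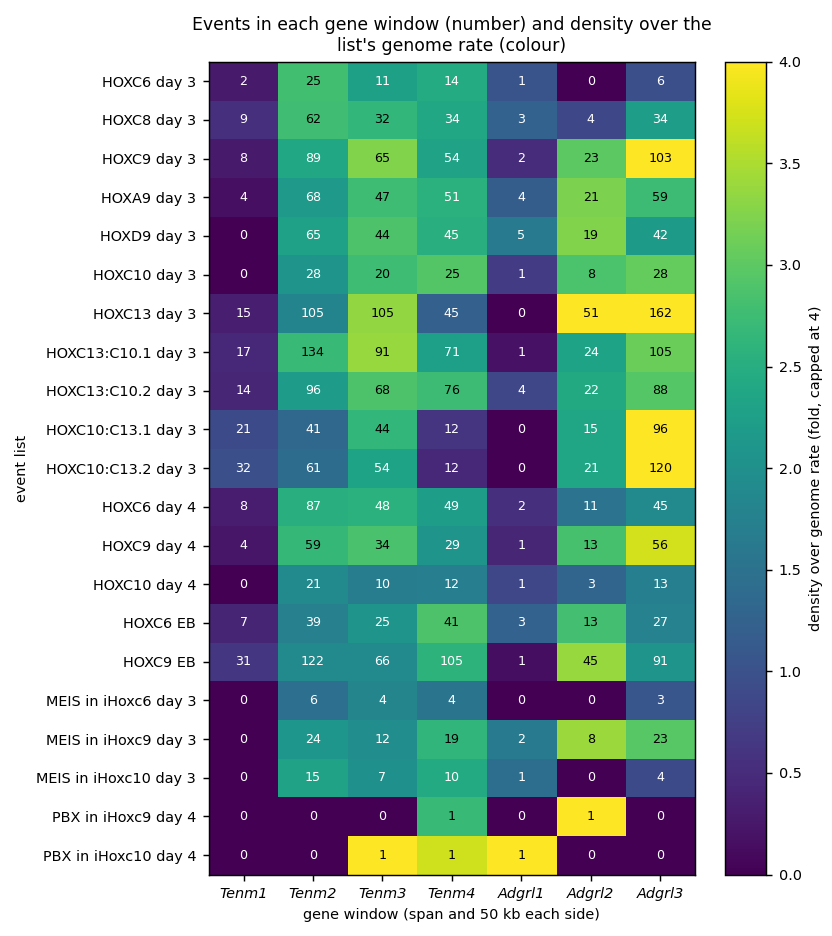
Number of events in each of the 7 gene windows (columns) for each of the 21 lists (rows); colour gives their density over the genome rate of the list, from 0 to 4-fold. Tenm1 is dark in all rows, Adgrl3 is brightest for HOXC9, HOXC13 and the HOXC10:C13 chimeras, and Adgrl2 is empty for HOXC6 at day 3 and for MEIS in iHoxc6 and iHoxc10. Bright PBX cells are single events.

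To ask which factors favoured which family, the density of each factor at day 3 was compared between the receptors and their ligands. With the windows of each family pooled, HOXC9 and HOXC13 bound the latrophilins more densely than the teneurins, for HOXC9 through Adgrl3. HOXC6 showed the opposite order in its full day 3 list. In full lists HOXC6 had 52 events in the 4 teneurin windows and 7 in the 3 latrophilin windows, 1.98 (1.48 to 2.595) and 0.783 (0.315 to 1.61) times its genome rate. HOXC9 had 216 and 128 events, 1.99 (1.73 to 2.27) and 3.46 (2.89 to 4.11) times, and HOXC13 had 270 and 213, 1.59 (1.40 to 1.79) and 3.68 (3.21 to 4.21) times. The latrophilin density divided by the teneurin density was thus 0.396 (0.152 to 0.875) for HOXC6, 1.74 (1.39 to 2.18) for HOXC9 and 2.32 (1.93 to 2.79) for HOXC13. HOXC8 stood between them at 0.880 (0.605 to 1.26), as did HOXD9 at 1.26 (0.930 to 1.69), HOXA9 at 1.45 (1.10 to 1.90) and HOXC10 at 1.49 (0.975 to 2.24). The intervals of HOXC6 and HOXC9 do not overlap, and those of HOXA9, HOXD9, HOXC10 and HOXC9 do. The share of reads in events was 0.07 to 0.08 for HOXC6, 0.174 to 0.398 for HOXC9 and 0.327 to 0.375 for HOXC13. Its part in these ratios was not tested.

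For HOXC6 the interval of the ratio included 1 among the 10000 strongest events (0.507, 0.153 to 1.32), with the gene spans alone (0.436, 0.152 to 1.02), without Adgrl3 (0.179, 0.00446 to 1.04) and at day 4. For HOXC9 and HOXC13 the ratio depended on Adgrl3 and Tenm1. Without Adgrl3 it fell to 1.08 (0.683 to 1.64) for HOXC9, an interval that includes 1, and to 1.76 (1.28 to 2.38) for HOXC13. Without the X-linked Tenm1 it was 1.34 (1.07 to 1.68) for HOXC9 and 1.82 (1.51 to 2.20) for HOXC13. Gene by gene, the 10000 strongest HOXC9 events stood at 6.44-fold (4.03 to 9.745) at Adgrl3 and 3.85-fold (1.05 to 9.86) at Adgrl2. Adgrl1 held 0 of them. Among the teneurins they stood at 4.58-fold (2.90 to 6.87) at Tenm2, 2.96-fold at Tenm3, 2.84-fold at Tenm4 and 0.529-fold at Tenm1.

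Cutting every list to its 10000 strongest events by read count matched the lists in number of events, though not in depth or in share of reads in events. At the genome rate, 14.7 of them would fall in the teneurin windows and 4.99 in the latrophilin windows. HOXC6, HOXC8 and HOXC6 at day 4 had 29, 30 and 28 events in the teneurins and only 5, 6 and 4 in the latrophilins. HOXC9 had 42 and 26, HOXC9 at day 4 had 29 and 21, and HOXC13 had 33 and 27. HOXA9 (25 and 16), HOXD9 (23 and 11) and HOXC10 (29 and 11) were intermediate in the latrophilins. Over the genome rate the strong latrophilin events of HOXC6 stood at 1.00-fold (0.325 to 2.34), those of HOXC9 at 5.21-fold (3.40 to 7.63) and those of HOXC13 at 5.42-fold (3.57 to 7.89). These intervals of HOXC6 and HOXC9 do not overlap, whereas those of their latrophilin to teneurin ratios (0.507 and 1.82, 1.07 to 3.04) do. The full HOXC6 list at day 4, with 69297 events, nevertheless placed 58 events there, 1.68-fold (1.27 to 2.17), with a ratio to the teneurins of 0.888 (0.650 to 1.20).

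**Figure D2:**
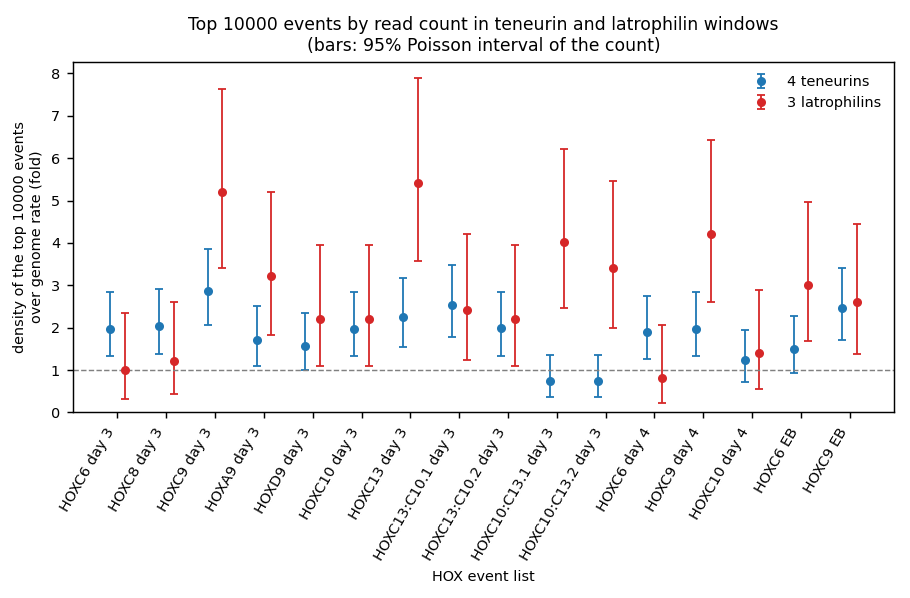
Density of the 10000 strongest events of each HOX list in the windows of the 4 teneurins (blue) and the 3 latrophilins (red), over the genome rate (dashed line at 1); bars are 95% Poisson intervals. HOXC6 at days 3 and 4 and HOXC8 lie near 1 at the latrophilins, EB HOXC6 lies at 3.01, HOXC9 at days 3 and 4 and HOXC13 lie above 4, and the HOXC10:C13 chimeras are the 2 lists under 1 at the teneurins.

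Most lists had an event in nearly every window, so presence alone separated little. In most HOX lists most coding windows held an event too, HOXC6 and HOXC10 at day 3 being the exceptions. The median coding window, at 117 kb, is shorter than every member window, so these shares are not matched for length. HOXC6 at day 3 had events in 6 of the 7 windows, where 45.5% of all coding windows held one, and HOXC10 in 6, where 46.9% did. HOXC8 (65.8%), HOXC9 (70.4%) and HOXA9 (76.5%) had events in all 7, and HOXD9 (77.6%) and HOXC13 (84.3%) in 6. Both HOXC13:C10 chimeras (78% and 76.8%) reached 7 windows and both HOXC10:C13 chimeras (63.3% and 72.4%) reached 6. At day 4 HOXC6 (75.5%) and HOXC9 (61.8%) reached 7 and HOXC10 (63.7%) reached 6, and in EBs HOXC6 (78.1%) and HOXC9 (89.3%) reached 7. HOXC6 was densest at Tenm2 (25 events, 2.78-fold, 1.80 to 4.11), with 11 events at Tenm3 and 14 at Tenm4. At Adgrl2 it had 0 events, which allows a density of up to 1.98-fold, and 4 HOXC8 events were found. HOXC9 had 23 events at Adgrl2 (2.99-fold, 1.89 to 4.49) and 103 at Adgrl3 (4.07-fold, 3.32 to 4.93), with 6 of HOXC6. HOXC13 had 51 and 162 there, and at Adgrl2 its density exceeded that of 99.7% of coding windows. HOXC10 was even over 5 genes, from 2.08-fold at Tenm2 (28 events) to 3.05-fold at Adgrl3 (28 events), within its counting error.

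All of these genes but Adgrl1 and Adgrl2 have windows of at least 500 kb, and such long genes are rich in events in these lists. Over all 7 windows HOXC9 stood at 2.36-fold (2.12 to 2.62) of the genome rate, HOXC13 at 2.12-fold (1.94 to 2.32) and HOXC6 at 1.68-fold (1.27 to 2.16). Against the rate in coding windows of at least 500 kb the values were 1.52-fold, 1.52-fold and 1.20-fold (0.914 to 1.55). For HOXC6 the 7 windows could thus not be told apart from long genes, though Adgrl1 and Adgrl2 are shorter than that class.

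Sites of HOXC6, HOXC9 and HOXC10 were then compared within the windows. Of the 110 HOXC10 events 80% (71.3 to 87.0) had a HOXC9 event within 100 bp, against 81.3% over the list. In the other direction 27.0% (22.4 to 32.1) of the 344 HOXC9 events had a HOXC10 event, against 30.4%. Neither share stood apart from the background. Of the 59 HOXC6 events 83.1% (71.0 to 91.6) were shared with HOXC9, above the 69.8% of the list, and 96.6% (88.3 to 99.6) were shared with HOXC8, against 90.2%. Summits of these lists often coincided to the base: 83.8% of all HOXC10 events near a HOXC9 event and 81.4% of such HOXC6 events sat on the same base, whereas 7.53% did between HOXC6 and HOXC8, and list length matters too. The sources used here do not say which lists were called together, and the part of this in the shared percentages was not tested. With HOXC9 cut to the length of the shorter list, the shares in the windows were 49.1% for HOXC10 and 44.1% for HOXC6. Whole-list shares under this cut were not computed, so these values cannot be set against a background.

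Sharing was also counted by family. Among HOXC9 events, 19.9% (14.8 to 25.9) of 216 in the teneurins had a HOXC6 event, against 4.69% (1.74 to 9.92) of 128 in the latrophilins and 17.3% over the list. With only 7 HOXC6 events in the latrophilin windows, the second share could hardly be higher. Seen from HOXC6, 6 of 6 events at Adgrl3 had a HOXC9 event. For HOXC8 the shares were 42.1% (35.5 to 49.0) and 25.0% (17.8 to 33.4), for HOXC10 they were 28.2% and 25.0%, with overlapping intervals, and for HOXC13 they were 36.6% (30.1 to 43.4) and 48.4% (39.5 to 57.4), against 34.7% over the list. Of all 483 HOXC13 events 28.4% (24.4 to 32.6) had a HOXC9 event, against 22.1%. Of the 1355 sites, 31 (2.29%, against 2.27% over the genome) were held by HOXC6, HOXC9 and HOXC10. HOXC9 and HOXC10 held 58 (4.28%, against 3.55%) without HOXC6, and HOXC9 held 217 (16.0%, 14.1 to 18.1, against 12%) without either. HOXC9 sites of all kinds were also more frequent, with 325 (24.0%, 21.7 to 26.35, against 18.8%). Those without HOXC6 or HOXC10 were thus 217 of 325 HOXC9 sites here and 45258 of 71088 over the genome. Only 12 were held by all 7 full-length factors, 0.886% against 0.844% over the genome, and 6 of these were in Tenm2.

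The one of those 12 with most HOXC9 reads lay in a Tenm2 intron, 1085 kb from the 5′ end. HOXC9 had 2212 reads there, rank 198, HOXA9 had 478.5, HOXC8 had 356.7, HOXD9 202.8, HOXC10 141.5, HOXC6 126.1 and HOXC13 53.5, against scaled control signals of 6.6 to 8.6 reads. HOXC13 ranked only 94823 of 115879 there. Another Tenm2 intron site, at chr11:36010026 and 1226 kb from the 5′ end, was among the strongest HOXC10 sites. It ranked 110 at day 3 (731.5 reads) and 48 at day 4 (947.0 reads), was held by 17 lists, and ranked 187 and 190 in the HOXC13:C10 chimeras, 886 and 531 in the HOXC10:C13 chimeras, and 34603 for HOXC13.

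Tenm3 had its strongest HOXC6 and HOXC8 site 49.0 kb upstream, near the edge of the window. HOXC8 had 2050 reads there, rank 49, HOXC6 had 652.6, rank 125, and HOXC6 at day 4 had 1559, rank 390. HOXC9 (772.1 reads, rank 2445) and HOXC10 (326.1, rank 1279) ranked lower, and HOXC13 had no event. The site was held by 14 lists and was also the strongest HOXD9 site of the 7 windows (562.3 reads, rank 524), with 684.1 HOXA9 reads, rank 822. A downstream site 41.3 kb from the gene was held by HOXC8 (739.5 reads), HOXC6 (161.4) and HOXC6 at day 4 (284.1) and by no other list. It was 1 of 6 HOXC6 sites without HOXC9 or HOXC10. At its promoters, a summit at chr8:48554607, 706 bp from an internal start site, was held by 12 lists, with 677.5 reads for HOXC6 at day 4 and 83.8 for HOXC9. Another, near chr8:48844137 and 186 bp from the first start site, was held by 8 lists at 35.4 to 143.0 reads.

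At Tenm4 the strongest site of HOXC6 and HOXC8 lay apart from that of HOXC13. An intron site 118 kb from the 5′ end ranked 34 for HOXC6 at day 4 (3285 reads), 106 for HOXC8 (1642 reads) and 531 for HOXC6 at day 3 (386.1 reads). HOXC9 ranked 13202 there (251.5 reads), HOXA9 and HOXC13 also had events, and HOXC10 had none. The intron site 609 kb from the 5′ end, 2.0 kb from an annotated coding start, ranked 26 for HOXC13 with 4491 reads, 1011 for HOXC9 with 1175 and 32393 for HOXC8 with 50.0, and HOXC6 and HOXC10 had no event at day 3. HOXC10 did have one at day 4, with 268.5 reads. The strongest Tenm4 site of HOXC9 at day 3 was neither of these. It lay 649 kb from the 5′ end, with 1455 reads and rank 619, and HOXC8 and HOXC6 at day 4 held it too. HOXA9, HOXD9 and HOXC10 at day 3 had their strongest at chr7:96672317, with 578.6, 480.6 and 254.6 reads.

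The leading latrophilin site of HOXC9 at days 3 and 4 was in an Adgrl3 intron 546 kb from the 5′ end. HOXC9 had 2235 reads at day 3, rank 193, and 3665 reads at day 4, rank 5 of 44024. HOXC13 had 1345 reads, rank 1016, behind its own best Adgrl3 site of 1735 reads, rank 568, while HOXA9 had 220.1, HOXC10 115.3 and HOXC8 81.7. HOXC6 had no event at day 3 and ranked 32427 at day 4 with 66.1 reads. HOXD9 had no event although HOXC9 and HOXA9 did. Adgrl2 had its strongest HOXC9 site in an intron, 128 kb from the 5′ end, with 945.3 reads (rank 1648), 354.6 for HOXA9, 164.4 for HOXC13, 124.0 for HOXD9, 118.9 for HOXC10 and 80.2 for HOXC8. HOXC6 reached it at day 4 only, with 103.8 reads.

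**Figure D3:**
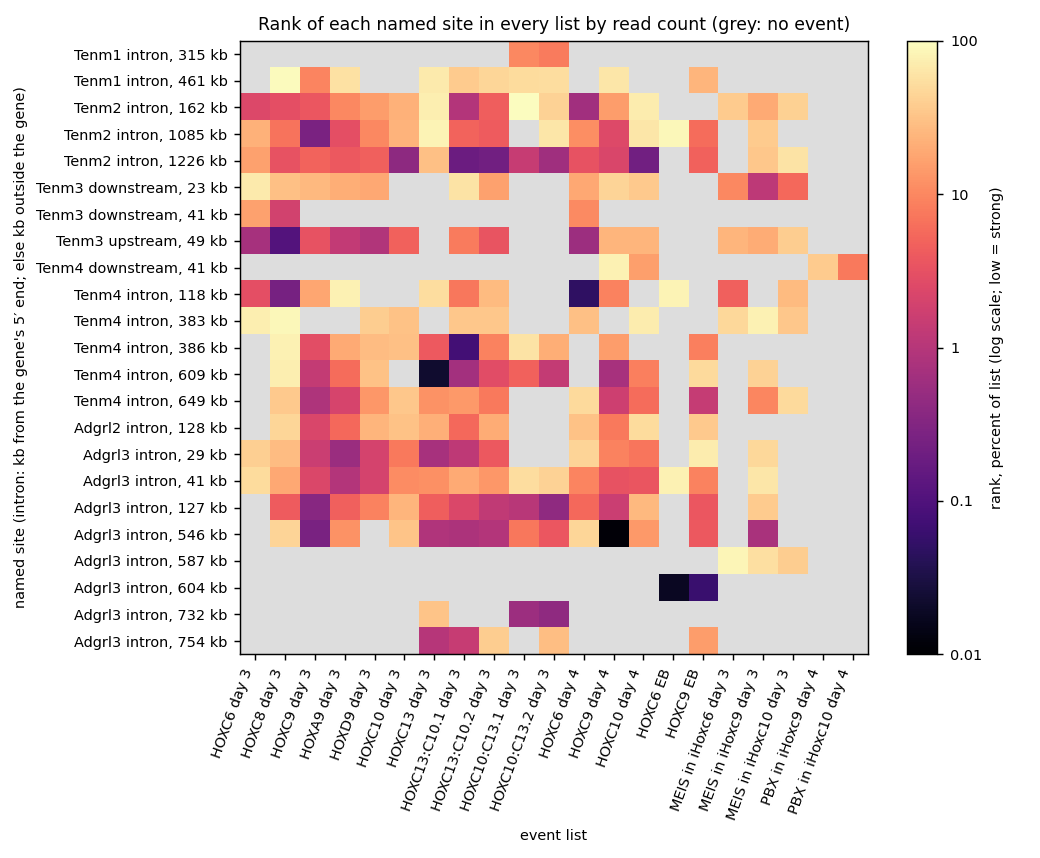
Rank of 23 named sites (rows, by gene and distance in kb from the 5′ end, or from the gene edge for flanking sites) in each of the 21 lists (columns), as a percent of the list on a log colour scale; dark is strong and grey is no event. The Adgrl3 site at 604 kb is dark in the 2 EB lists and grey elsewhere, and the Tenm4 sites at 118 and 609 kb are dark for HOXC6 and HOXC13 lists respectively.

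Sites of HOXC13 alone were as common as over the genome. Of its sites in the windows, 305 (22.5% of all sites, against 22.2% over the genome) had no other full-length factor, 99 of them in Adgrl3, 68 in Tenm2 and 67 in Tenm3. The strongest, in an Adgrl3 intron 754 kb from the 5′ end, had 1265 HOXC13 reads and 1734 HOXC13:C10.1 reads, with weaker events of HOXC13:C10.2 (118.4), HOXC10:C13.2 (109.4) and EB HOXC9 (328.4).

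The chimera pairs were far apart at Tenm4. HOXC10:C13.1 and HOXC10:C13.2, which carry the HOXC13 homeodomain, had 96 and 120 events at Adgrl3, 4.57-fold (3.70 to 5.58) and 4.07-fold (3.37 to 4.87). At Tenm4 each had 12 events, 0.616-fold (0.318 to 1.08) and 0.439-fold (0.227 to 0.766). HOXC13 itself stood at 4.09-fold and 1.23-fold (0.893 to 1.64), and HOXC10 at 3.05-fold and 2.93-fold (1.90 to 4.33). The HOXC13:C10 chimeras, with the HOXC10 homeodomain, had 71 and 76 events at Tenm4, 2.25-fold and 2.75-fold, and 105 and 88 at Adgrl3, 3.10-fold and 2.95-fold. The latrophilin to teneurin ratio was 2.77 (2.11 to 3.62) and 2.61 (2.06 to 3.29) for the HOXC10:C13 pair, and 1.22 (0.988 to 1.50) and 1.32 (1.05 to 1.65) for the HOXC13:C10 pair. Among the 10000 strongest events the ratios were 5.35 (2.44 to 12.3) and 4.54 (2.01 to 10.7) for the first pair, and 0.954 (0.453 to 1.87) and 1.11 (0.503 to 2.30) for the second. Beside these counts, mostly soft-masked events were 9.61 and 11.7% of the HOXC10:C13 events in the windows and 2.26 and 2.17% of the HOXC13:C10 events.

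At shared sites, 58.7% (52.9 to 64.3) of 300 HOXC10:C13.2 events had a HOXC13 event, above the 47.0% of the list, and 9% (6.02 to 12.8) had a HOXC10 event, against 7.88%. In the latrophilins the HOXC13 share was 67.4% (59.0 to 75.0) and in the teneurins 50.9% (42.9 to 59.0). Of 368 HOXC13:C10.2 events 29.1% (24.5 to 34.0) had a HOXC10 event, against 31.3%, and 30.7% a HOXC13 event, against 28.4%. The HOXC10 list held 26873 events and the HOXC13 list 115879, so shares with HOXC10 and with HOXC13 are not on one scale. Among the 10000 strongest events of each list, 65.0% of HOXC13:C10.2 events had a HOXC10 event. Under the same cut 35.7% of HOXC10:C13.2 events had a HOXC13 event. 1 site was far stronger in the HOXC10:C13 chimeras than in HOXC13. At an Adgrl3 intron site 732 kb from the 5′ end they had 634.6 and 674.8 reads, ranks 349 and 376, where HOXC13 had 118.3 reads and ranked 36931, and no other list had an event. Of its bases 41.6% were soft-masked.

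**Figure D4:**
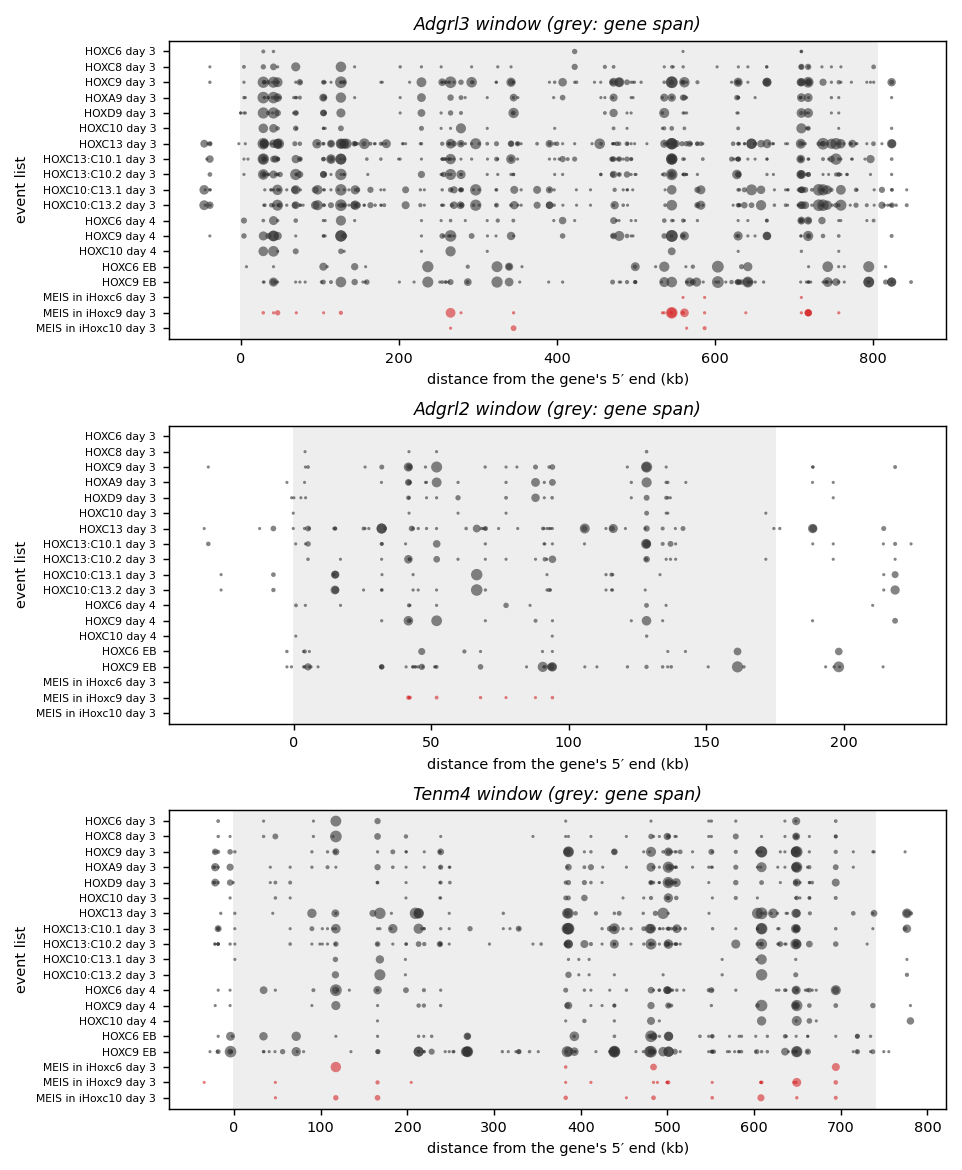
Position of every HOX event (black) and MEIS event (red) along the Adgrl3, Adgrl2 and Tenm4 windows, in kb from the 5′ end of the gene (grey: gene span), 1 row per HOX or MEIS list. Larger dots rank higher in their list. HOXC6 at day 3 has 6 events at Adgrl3 and 0 at Adgrl2, and the HOXC10:C13 rows are crowded at Adgrl3 but hold 12 events each at Tenm4.

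Most HOXC9 sites at day 4 were already sites at day 3. Of the 196 HOXC9 events at day 4, 85.7% (80.0 to 90.3) had a day 3 event, against 81.8% over the list, with 92.9% (52 of 56) at Adgrl3 and 81.4% (48 of 59) at Tenm2. In the other direction 50% (44.6 to 55.4) of the 344 day 3 events had a day 4 event, against 49.4% over the list, with 50.5% (52 of 103) at Adgrl3. For HOXC10, 70% (56.8 to 81.1) of 60 day 4 events had a day 3 event, against 56.4%, with 12 of 13 at Adgrl3, 18 of 21 at Tenm2 and 5 of 12 at Tenm4. HOXC6 had 250 events at day 4 against 59 at day 3, and 25.6% of the later ones had an earlier event, against 26.0% of the list. The HOXC6 list itself was longer at day 4, with 69297 events against 17900. Its share of reads in events was 0.304 to 0.311 at day 4 and 0.07 to 0.08 at day 3. The day 4 lists had a control of 4.72 M reads, against 20.6 M for the day 3 lists of HOXC6, HOXC9 and HOXC10. The part of these differences in the comparison of the days was not tested.

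In EBs without patterning signals the sites were mostly others. Of the 461 EB HOXC9 events 27.5% (23.5 to 31.9) had a day 3 HOXC9 event, against 23.5% over the list, with 37.4% (34 of 91) at Adgrl3 and 22.9% (24 of 105) at Tenm4. Of the 155 EB HOXC6 events 6.45% (3.14 to 11.5) had a day 3 HOXC6 event, against 7.39%. Between the EB lists, 72.9% (65.2 to 79.7) of the HOXC6 events had an EB HOXC9 event, against 71.8% over the list, and 25.8% (21.9 to 30.1) of the HOXC9 events had an EB HOXC6 event, against 25.7%. From day 3, 37.8% (32.7 to 43.1) of the 344 day 3 HOXC9 events had an EB event, against 40.4%. The latrophilin to teneurin ratio was 1.13 (0.775 to 1.62) for EB HOXC6 and 1.24 (1.01 to 1.52) for EB HOXC9. Among the 10000 strongest events of each list it was 2.01 (0.967 to 4.04) and 1.06 (0.517 to 2.05). EB HOXC6 had 13 events at Adgrl2, 2.80-fold of its genome rate. The strongest EB site of the windows lay in an Adgrl3 intron 604 kb from the 5′ end. It had 8173 HOXC6 reads, rank 8 of 44751, and 5827 HOXC9 reads, rank 78 of 128388, over 2.40 and 2.30 control reads, with no soft-masked base in the stretch shown, and no other list held an event there. Of the searched motifs only TTTAC matched.

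In full lists MEIS was denser at the latrophilins than at the teneurins in 1 of the 3 lines, iHoxc9. The intervals of the ratio between the families nevertheless overlap across the lines. The latrophilin to teneurin ratio was 1.76 (1.11 to 2.765) in iHoxc9, 0.459 (0.140 to 1.19) in iHoxc10 and 0.630 (0.116 to 2.26) in iHoxc6. In the iHoxc9 line it had 88 events in the windows, 55 in the teneurins and 33 in the latrophilins, 1.65-fold (1.24 to 2.15) and 2.91-fold (2.00 to 4.09). In iHoxc10 it had 32 and 5, 1.69-fold (1.15 to 2.38) and 0.775-fold (0.251 to 1.81), and in iHoxc6 it had 14 and 3, 1.17-fold (0.639 to 1.96) and 0.737-fold (0.152 to 2.15). At Adgrl2 there were 8 MEIS events in iHoxc9, where 46.6% of coding windows held an event, and 0 in iHoxc6 and iHoxc10, where 24.1 and 36.8% did. HOXC10 itself had 8 events at Adgrl2 and 28 at Adgrl3, where MEIS in iHoxc10 had 0 and 4. These are single libraries of 9.70 to 12.1 M reads, and the lists held 8219 (iHoxc6), 22749 (iHoxc9) and 12982 (iHoxc10) events. Where MEIS events of iHoxc9 and iHoxc10 lay within 100 bp, 92.4% sat on the same base. Among the 10000 strongest events the latrophilin counts were 13 in iHoxc9 and 3 in iHoxc10, against 24 and 24 in the teneurins. The ratios were then 1.59 (0.745 to 3.255) and 0.368 (0.0709 to 1.21), and both intervals include 1.

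Of the 88 MEIS events in iHoxc9, 64.8% (53.9 to 74.7) had a HOXC9 event, against 66.9% over the list, with 81.8% (64.5 to 93.0) in the latrophilins and 54.5% (40.6 to 68.0) in the teneurins. In iHoxc10 the share with HOXC10 was 37.8% (22.5 to 55.2) of 37, against 54.2%. The leading HOXC9 site of Adgrl3 was also the leading MEIS site of the windows in iHoxc9, with 536.7 reads and rank 174, and MEIS had no event there in the other lines. At Tenm4 the HOXC6 site 118 kb from the 5′ end held MEIS in iHoxc6 (201.0 reads, rank 376) and in iHoxc10 (69.2 reads), and not in iHoxc9. A Tenm3 downstream site, at chr8:48205048, held MEIS in all 3 lines at 134.3, 456.1 and 166.7 reads. PBX had 2 and 3 events in the windows of iHoxc9 and iHoxc10, with no more than 1 per gene. For the iHoxc9 list 16.9% of coding windows held one, and for the iHoxc10 list 2865 of 21938 did. In both lines it had 1 about 40.5 kb downstream of Tenm4, at 33.0 and 41.6 reads. The stretch around this site overlaps an exon or UTR of another annotated gene. The Tenm4 window also holds the coding gene Nars2, so the site cannot be assigned to Tenm4.

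Motif shares at the member sites were compared with those of each whole list. TTTAT was within 50 bp of 61.9% (56.6 to 67.1) of the 344 HOXC9 events, against 62.4% of the list, of 35.6% (23.5 to 49.1) of HOXC6, against 38.4%, and of 49.1% (39.4 to 58.8) of HOXC10, against 54.2%. HOXC13 reached 73.3% (69.1 to 77.2), under the 78.8% of its list, and HOXC10:C13.1 81.7% (76.0 to 86.4), under 89.2%. HOXC10:C13.2 was also under its list, with 85% (80.5 to 88.8) against 89.99%, as was EB HOXC9, with 48.6% (43.9 to 53.3) against 54.1%. TTTAC was above the list for HOXC8, with 28.1% (21.6 to 35.3) against 20.2%, and for HOXC13:C10.1, with 34.1% (29.7 to 38.7) against 28.7%. TAAT was above it for HOXC10 at day 4, with 70% (56.8 to 81.1) against 54.6%, and for EB HOXC9, with 76.1% (72.0 to 80.0) against 70.7%. It was also above it for HOXC13:C10.2, with 77.2% (72.5 to 81.4) against 71.9%. Every motif was compared in all 21 lists, with no correction for the number of comparisons. TAAT stood at 74.6% of HOXC6 events, 77.03% of HOXC9 and 75.5% of HOXC10.

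Genes known to act with these receptors, and the related receptor gene Adgrl4, were counted in the same way, in 11 windows (Flrt1, Flrt2, Flrt3, Unc5a, Unc5b, Unc5c, Unc5d, Nrxn2, Nrxn3, Cntn6 and Adgrl4). For HOXC9 at day 3, 9 of the 11 stood above the genome rate, with a median of 2.07-fold, beside 5 of the 7 members with a median of 2.39-fold. For HOXC6 it was 9 of 11 (2.30-fold) beside 4 of 7 (1.04-fold), and for HOXC13 7 of 11 (1.36-fold) beside 5 of 7 (1.81-fold). Flrt1, a latrophilin ligand, had 5 HOXC6 events, 6.50 (2.11 to 15.2) times the genome rate. It had 10 of HOXC9, 3.14 (1.51 to 5.78) times, and 8 of HOXC10, 6.93 (2.99 to 13.7) times. Flrt3, another ligand, had 28 HOXC13 events at 5.31-fold (3.53 to 7.67) and 1 HOXC6 event at 1.23-fold (0.0311 to 6.84), with overlapping intervals. The netrin receptor gene Unc5c had 44 MEIS events in iHoxc9, 10.9-fold, and 27 in iHoxc10, 11.8-fold, with 31 of HOXC9. Nrxn3, a neurexin and presynaptic adhesion gene, held 132 HOXC9 and 33 HOXC6 events. Other partners stood low: Nrxn2 had 2 HOXC13 events, 0.203-fold (0.0246 to 0.7325), and Unc5b had 0 HOXC6 events. Of 1313 coding windows with at least 50 sites, those most like Tenm2 in log2 density over the 21 lists were Nrxn3 (Pearson r 0.989), Celf2 and Ctnna2, where the median gene already had 0.825. Adgrl3 was most like Tbc1d5 (r 0.974, median gene 0.757). Tenm4 was most like Med27 (r 0.873, median gene -0.133) and least like Tenm1 among the members (r -0.48). The points share controls, depth and the lists with 0 events, which weigh heavily on a log scale.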

How the data were processed

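ChIP-seq of 40 mouse libraries was used as 21 event lists, each pooling the replicates of its group. Per the labels and the study's methods, reads were mapped to mm10 with Bowtie (1.0.1) and events were called with MultiGPS against a control (an anti-Flag ChIP or an input) at a q-value under 0.001. Picard (2.8.2) is also named in the submitters' processing notes. The deposited values per event are an estimated count of ChIP reads, a control signal (scaled control reads), a log2 fold over control and a score, the log2 q-value. The authors' comparisons between factors (edgeR 3.22.5), in further columns, were not used. The other 2 samples are controls with no list of their own.

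Counting, merging, intervals and figures were made in Python 3.11.15 with NumPy 2.4.6, pandas 2.3.3 and SciPy 1.17.1, and the counting steps were tested on simulated data. Genes came from GENCODE vM21 and sequence from RefSeq GRCm38.p6. All 997561 deposited event sequences, in the lists that hold them, were found on that build within 100 bp of their event. The 95% intervals and all limits for counts of 0 cover counting error alone. Rank 1 is the highest estimated count. One gene is not reported here, and counts over the partner genes leave it out. The genes, partner genes, motifs and named sites were chosen with earlier results of these data known. Named sites were, for each gene, the highest HOXC9 day 3 count and the site in most lists, then the strongest site of each pattern of factors. The strongest site of each list, Tenm3 promoter sites and the comparison of the 2 families were chosen after their values were seen.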

Additional observations from a re-analysis of the deposited data

How the results depend on the processing

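Lists pool their replicates, so leaving out a replicate was not possible and no result could be tested against replicate spread. No paired analysis was possible because the deposited lists carry no value per replicate. Of 86 other settings tried over the reported densities and shares, 56 stayed within the counting interval of the reported value and 30 left it. A reversal, meaning a crossing of the genome rate, was defined only for the densities, and 0 were seen. For the shares no reversal was defined, so none could be counted. Another 3 settings that cut a longer second list could not apply. Replacing the genome rate by coding windows of at least 500 kb moved the density to 1.20-fold for HOXC6, 1.52-fold for HOXC9 and 1.52-fold for HOXC13, and the 10000 strongest events moved it to 3.46-fold for HOXC9 and 3.06-fold for HOXC13. With the top 10000 by read count and by q-value, the shares were 60 and 60.5% (HOXC10 with HOXC9), 38.2 and 38.5% (HOXC9 with HOXC10), 44.1 and 41.2% (HOXC6 with HOXC9), 78.0 and 76.8% (HOXC9 day 4 with day 3), 14.3 and 14.0% (EB HOXC9 with day 3), 65.0 and 72.5% (HOXC13:C10.2 with HOXC10) and 35.7 and 33.3% (HOXC10:C13.2 with HOXC13). With the second list cut to the length of the first they were 49.1% (HOXC10 with HOXC9), 44.1% (HOXC6 with HOXC9), 74.5% (HOXC9 day 4 with day 3), 50.7% (HOXC10:C13.2 with HOXC13) and 47.7% (MEIS with HOXC9). Within 50 bp, 23.2% of EB HOXC9 events and 52.3% of MEIS events in iHoxc9 were shared with HOXC9, and at a q-value under 1e-06 the MEIS share was 86.0%. The TTTAT share of HOXC9 events was 44.8% within 25 bp, 81.1% within 100 bp and 84.0% for TTAT. Of 14 alternatives for the latrophilin to teneurin ratio, added after seeing the data, 9 stayed within the interval and 0 reversed; the others were 0.888 (HOXC6 at day 4), 1.34 and 1.82 without Tenm1 (HOXC9 and HOXC13), and 1.08 and 1.76 without Adgrl3. The cause of these shifts was not tested.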
